A study of Rattus norvegicus with 39 samples.

Results

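ANIT (1-naphthylisothiocyanate) is a compound used to injure the biliary epithelium of rodents. The comparison described here asked whether its early effect on RNA differed between bile duct and hepatocytes. Bile duct and hepatocytes were cut from liver sections of 8 week old Sprague Dawley rats by laser capture microdissection, in which cells are picked from a stained section by laser. The ANIT rats had received 50 mg/kg ANIT in corn oil and the vehicle rats corn oil alone at 10 ml/kg, and tissue was taken 2 h later. The 4 groups were ANIT bile duct, vehicle bile duct, ANIT hepatocytes and vehicle hepatocytes, with 5 arrays each, so 20 of the 39 arrays of the series entered. The labels call the arrays of a group biological replicates, and they do not say whether a bile duct and a hepatocyte array came from the same rat. The quantity followed is the ANIT minus vehicle change in bile duct minus the ANIT minus vehicle change in hepatocytes, called the regional difference. It was computed on log2 levels for each of 15866 Affymetrix probe sets, sets of short probes that each report 1 transcript. A regional difference of 1 means that ANIT over vehicle was 2-fold higher in bile duct than in hepatocytes.

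Hepatocytes couple ANIT to glutathione and export the conjugate into bile, where it can release free ANIT next to cholangiocytes, the epithelial cells that line the ducts. Cells that meet electrophiles commonly switch on targets of NRF2, a transcription factor held inactive by KEAP1 until KEAP1 is modified, and heat shock genes driven by HSF1. Damaged epithelium also commonly activates the EGF receptor and its downstream kinase ERK, which switches on immediate early genes and the phosphatases that limit ERK.

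The captures matched their labels on defining markers. The mean of 22 cholangiocyte markers was 8.15 ± 0.46 in ANIT and 8.47 ± 0.13 in vehicle bile duct arrays, against 4.50 ± 0.09 in ANIT and 4.44 ± 0.12 in vehicle hepatocyte arrays (log2, SD, n = 5 each). The mean of 20 hepatocyte markers was 11.01 ± 0.07 in ANIT and 10.99 ± 0.10 in vehicle hepatocyte arrays. In bile duct it was 5.27, 6.38, 7.51, 6.45 and 6.90 on ANIT replicates 1 to 5, against 4.49, 5.30, 4.80, 6.87 and 4.71 on vehicle replicates 1 to 5 (exact two-sided permutation test p = 0.0635, BH 0.354 over 17 array measures). Hepatocyte marker RNA was thus present in the bile duct captures, highest on ANIT replicate 3, and the ANIT and vehicle ranges overlapped. The spread of log2 levels was lowest on ANIT bile duct replicates 2 and 4, with SD 1.76 and 1.88 over all probe sets, against 2.07 to 2.11 on the other 3 ANIT and 1.99 to 2.18 on the 5 vehicle bile duct arrays. Those 2 arrays also had the lowest cholangiocyte marker means, 7.47 and 7.88. Their beta-actin control probes at the 3' end read 7.07 and 7.66, against 9.15 to 10.24 on the other bile duct arrays. The 3' minus 5' beta-actin signal was 2.98 and 4.17 on them, against 5.68 to 6.31 on the others. Arrays of a group correlated across probe sets at 0.866 to 0.959 in ANIT and 0.939 to 0.973 in vehicle bile duct, and at 0.988 to 0.993 in ANIT and 0.982 to 0.992 in vehicle hepatocytes. The standard error of the ANIT change was larger in bile duct for 98.5% of probe sets, with a median ratio of residual SD of 2.50, and each region therefore kept its own variance. In captured tissue, fewer cells of a type and less RNA per cell cannot be told apart.

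**Figure D1:**
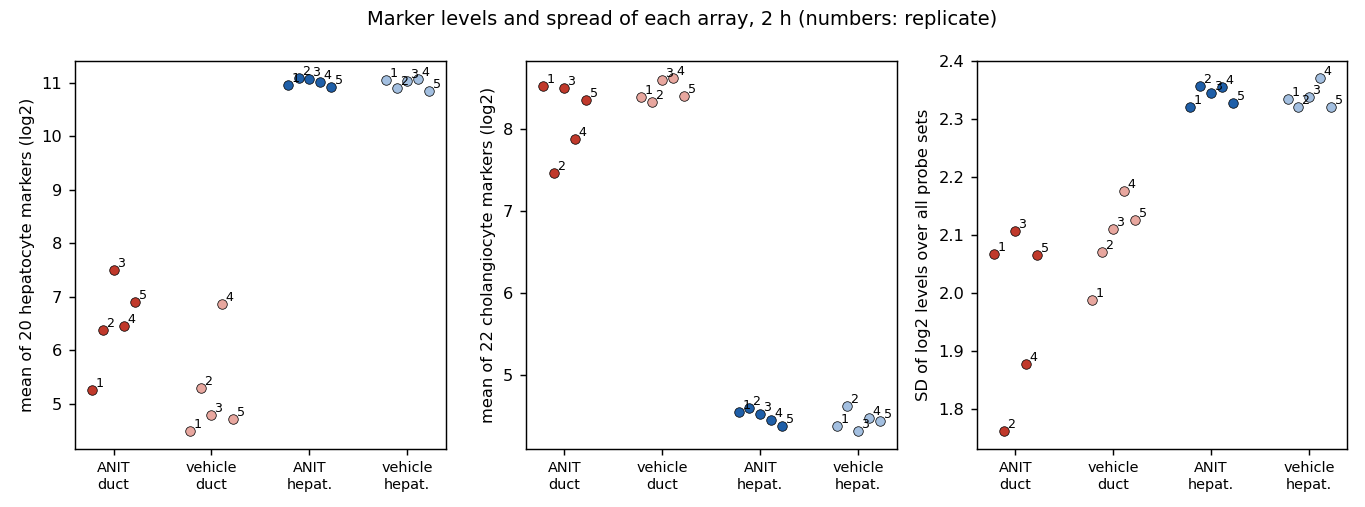
Mean log2 level of hepatocyte markers, mean log2 level of cholangiocyte markers and SD of log2 levels over all probe sets, for each of the 20 arrays (points, numbered by replicate) in the 4 groups. Bile duct arrays carry hepatocyte marker means of 4.49 to 7.51 against about 11 in hepatocyte arrays, and ANIT bile duct replicates 2 and 4 have the lowest spread.

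The regional difference passed an adjusted p of 0.05 (limma in each region, Benjamini-Hochberg over 15866 probe sets) for 163 probe sets, 1.03% of those tested. Of these, 39 were higher in bile duct (0.246%) and 124 lower (0.782%), and the 143 with a single gene symbol stood for 141 genes. The lowest adjusted p was 2.11e-05, and 2420 probe sets had an unadjusted p under 0.05. Among the called probe sets the change was mostly the larger in bile duct. Selection by the regional difference itself favours the region of larger spread, here bile duct. Among the 163, the median absolute ANIT change was 1.39 in bile duct and 0.15 in hepatocytes (log2), against 0.30 and 0.09 over all probe sets. In bile duct alone 178 probe sets passed (1.12%), 41 higher (0.258%) and 137 lower (0.863%), and 112 of the 163 were among them. In hepatocytes none passed in limma, with 1195 at an unadjusted p under 0.05 and a lowest adjusted p of 0.268. The 5 ANIT bile duct arrays lay wholly above or below the 5 vehicle bile duct arrays for 131 of the 163, where over all probe sets 1.33% lay above and 3.01% below. Hepatocyte arrays separated in that way for 7 of the 163, where 0.561% of all probe sets lay above and 0.523% below. The 163 were selected on these same arrays, so their sizes and separation are no separate support.

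The balance of higher and lower calls varied with the normalization and with single bile duct arrays. With quantile normalization of the 20 arrays 39 were higher and 60 lower, and 86 of the 163 were kept. Subtracting array medians gave 28 higher and 121 lower. Without vehicle bile duct replicate 4 there were 39 higher and 44 lower, without ANIT bile duct replicate 2 alone 110 higher and 129 lower, and without ANIT bile duct replicate 4 alone 12 higher and 48 lower. Without both ANIT bile duct replicates 2 and 4 the split was 102 higher and 85 lower with 93 kept. A covariate for the spread of each array gave 122 higher and 72 lower, with 86 kept. With the hepatocyte marker mean of each bile duct array as a covariate, 1 probe set passed. The 163 differences were then 1.03 times as large at the median (range 0.40 to 1.40) with standard errors 1.25 times as large, and each of the 163 had an unadjusted p under 0.05. The 163 were selected for small p on the same arrays, so these values are no separate support for them. At the threshold, the last gene called was Map2k6 (adjusted p = 0.0497) and the first not called Gdpd5 (adjusted p = 0.0538).

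**Figure D2:**
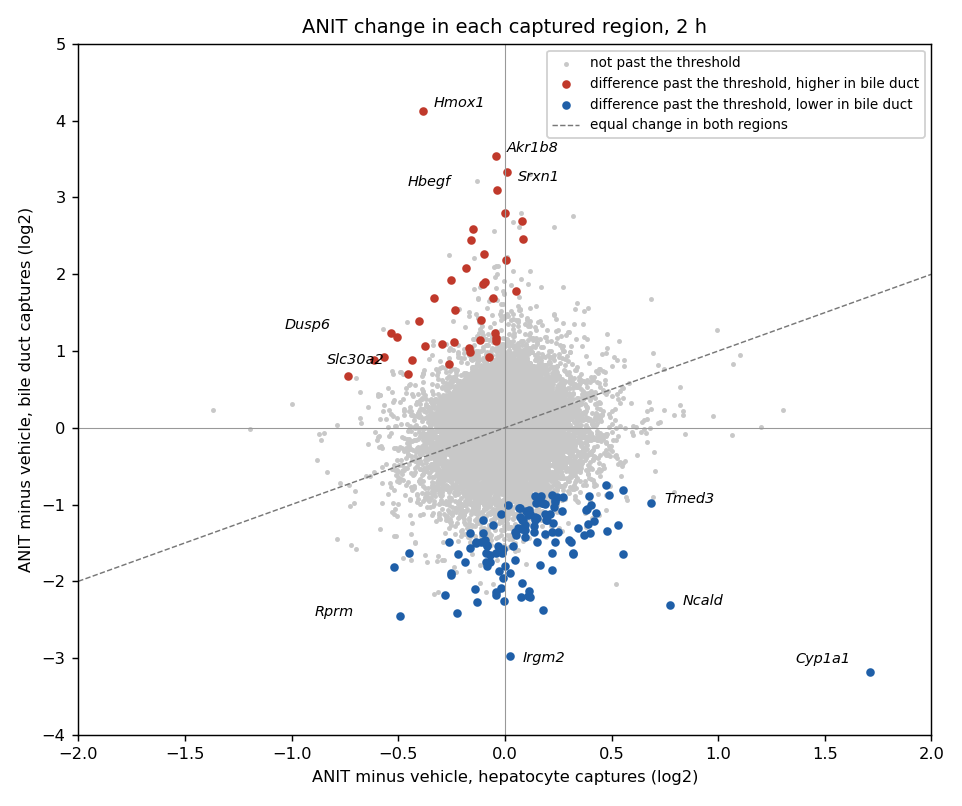
ANIT minus vehicle change (log2) of each probe set in hepatocyte captures (horizontal) and bile duct captures (vertical), with the 39 probe sets whose regional difference was higher in red, the 124 lower in blue and the rest in grey. The called probe sets spread along the bile duct axis, and 151 of the 163 lie within 0.5 of 0 on the hepatocyte axis, the other 12 including Cyp1a1 at 1.71, Ncald at 0.77, Slc30a2 at -0.73 and Tmed3 at 0.69.

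Genes of the response to electrophiles and oxidative stress gave the largest positive differences. Of 25 genes of a list of NRF2 targets and glutathione synthesis on the array, 5 were higher in bile duct, none was lower and 20 did not pass. The median regional difference was 0.82, against 0.03 over all probe sets, and the list's median change was 1.03 in bile duct and 0.09 in hepatocytes. For this and the later lists, the shares over all probe sets were 0.246% called higher and 0.782% called lower. The lists were chosen with earlier results of these data known, so their counts and medians are no separate support. Of the 25 genes, 23 were measured in bile duct (a group mean of at least 5), against 6024 of all 15866 probe sets. Hmox1, whose product heme oxygenase breaks down heme, stood at 10.45, 5.53, 10.10, 9.80 and 7.16 (log2) on ANIT bile duct replicates 1 to 5, against 4.48, 4.65, 4.24, 4.68 and 4.33 on vehicle bile duct replicates 1 to 5. In hepatocytes it stood at 6.75, 8.30, 7.34, 6.92 and 6.36 with ANIT, against 6.68, 8.55, 7.82, 8.11 and 6.44 with vehicle. Every ANIT bile duct array was above every vehicle bile duct array, replicate 2 by the least, and the hepatocyte groups overlapped. The regional difference was 4.52 ± 0.84 (SE, n = 5 per group, adjusted p = 0.0120), a 22.9-fold larger ratio in bile duct.

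Srxn1, encoding sulfiredoxin, which restores oxidized peroxiredoxins, stood at 10.84, 6.67, 9.73, 8.53 and 8.11 in ANIT bile duct, against 4.53, 4.60, 5.91, 5.79 and 6.36 in vehicle bile duct. The groups did not overlap, whereas hepatocyte arrays stayed between 5.98 and 6.88 with ANIT and between 6.11 and 6.26 with vehicle. Its regional difference was 3.33 ± 0.63 (adjusted p = 0.0208), and the call held in 15 of the 20 fits that each left out 1 array. Osgin1, a growth inhibitor induced by oxidative stress, was tighter across arrays, at 8.82 to 9.84 (median 9.61) in ANIT and 7.11 to 8.41 (median 7.30) in vehicle bile duct, a difference of 1.98 ± 0.39 (adjusted p = 0.0138). Akr1b8, an aldo-keto reductase gene, stood at 12.03, 8.81, 11.95, 11.61 and 11.29 in ANIT bile duct, against 6.83, 4.71, 7.78, 9.02 and 9.65 in vehicle bile duct. Replicate 2 of the ANIT group was low enough to overlap the vehicle arrays, and in hepatocytes the gene stayed between 2.37 and 2.92 with ANIT and between 2.38 and 3.04 with vehicle. The difference was 3.58 ± 0.80 (adjusted p = 0.0468), with the call kept in 12 of 20 fits. Txnrd1, the thioredoxin reductase that keeps thioredoxin reduced, differed by 2.61 ± 0.52 (adjusted p = 0.0257) on its probe set with the smallest p. Its brighter probe set differed by 1.45 ± 0.42 without passing (adjusted p = 0.105). The quinone reductase gene Nqo1 differed by 2.35 ± 0.68 without passing (adjusted p = 0.0896).

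Ugdh, encoding the UDP-glucose dehydrogenase that makes UDP-glucuronic acid for conjugation, was the fifth NRF2-list gene called. It stood at 10.75, 9.75, 10.90, 10.84 and 10.58 in ANIT bile duct, against 9.64, 9.11, 9.27, 9.26 and 9.68 in vehicle bile duct. All the ANIT arrays were above the vehicle arrays, and the regional difference was 1.21 ± 0.28 (adjusted p = 0.0413), kept in 9 of 20 fits. RefSeq promoters (build GRCr8, 250 bases before each gene's start) were available for 21 of the 25 list genes. The letters TGACNNNGC, the core of the antioxidant response element bound by NRF2, occurred on either strand in 5 of them (Ugdh, Gstp1, Gclm, Gsta3 and Me1), and in 10.2% of 27457 promoters in all. Ugdh alone among these 5 passed the test, and its stretch is shown with the motif in capitals, here on the opposite strand (GRCr8 chr14:43202281-43202349, + strand).
Ugdh: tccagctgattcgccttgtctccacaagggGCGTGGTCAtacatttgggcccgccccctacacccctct

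Of 18 heat shock genes, 1 was higher in bile duct and none was lower. The median regional difference of this list was 0.95, with 16 positive, 2 negative and 17 not passing, and its median change was 0.89 in bile duct and 0.01 in hepatocytes. Over all probe sets 8391 regional differences were positive and 7468 negative. The called gene was Hsph1, which encodes HSP110, a partner of HSP70 in refolding proteins. It stood at 10.63, 7.60, 10.80, 10.09 and 9.26 in ANIT bile duct, against 6.31, 7.46, 7.81, 7.28 and 8.17 in vehicle bile duct. ANIT replicate 2 lay within the vehicle range, and hepatocyte arrays stayed at 7.74 to 8.32 with ANIT and 7.96 to 8.31 with vehicle. The difference was 2.37 ± 0.53 (adjusted p = 0.0445), kept in 11 of 20 fits. The inducible HSP70 gene Hspa1a differed by 3.20 ± 0.81 (adjusted p = 0.0712), the small chaperone gene Hspb1 by 1.86 ± 0.61 (adjusted p = 0.140) and the mitochondrial chaperonin gene Hspd1 by 1.04 ± 0.31 (adjusted p = 0.123), none passing. Without ANIT bile duct replicates 2 and 4, 7 of the 18 passed, all higher, where higher calls over all probe sets went from 39 to 102. With quantile normalization 1 of the 18 passed. With 1 variance over the 4 groups, or with the hepatocyte marker covariate, none passed.

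The letters GAANNTTC, a pair of adjoining units of the heat shock element that HSF1 binds, were in the RefSeq promoters of 9 of the 15 list genes matched, against 7.02% of all promoters. They are shown in capitals for Hsph1, the list gene called, and Hspb1, which holds a pair of them (GRCr8 chr12:10427307-10427367, + strand, and chr12:26432373-26432460, - strand).
Hsph1: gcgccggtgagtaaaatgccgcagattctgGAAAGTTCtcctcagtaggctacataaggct
Hspb1: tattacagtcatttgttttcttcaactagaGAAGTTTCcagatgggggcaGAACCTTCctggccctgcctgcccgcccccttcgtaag

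Ligands and feedback genes of the EGF receptor and ERK pathway gave 4 calls. Of 19 on the array, 4 were higher in bile duct, none was lower and 15 did not pass, with a median regional difference of 1.17. The list's median change was 1.16 in bile duct and -0.01 in hepatocytes. Of the 19, 8 were measured in bile duct and 5 in hepatocytes. Hbegf, a membrane-anchored ligand of the EGF receptor, stood at 8.25, 3.68, 7.70, 6.04 and 5.39 in ANIT bile duct, against 2.36, 2.86, 3.57, 3.09 and 3.67 in vehicle bile duct. The groups just failed to meet at ANIT replicate 2, and all hepatocyte values were between 1.67 and 2.07. Its difference was 3.14 ± 0.65 (adjusted p = 0.0329), which quantile normalization left short of the threshold (adjusted p = 0.0741).

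Dusp5 and Dusp6 encode phosphatases that inactivate ERK, the first in the nucleus and the second in the cytoplasm. Dusp5 was 6.49, 3.80, 6.04, 5.00 and 5.38 in ANIT bile duct, against 3.42, 2.03, 2.27, 2.57 and 3.50 in vehicle bile duct, with a difference of 2.73 ± 0.46 (adjusted p = 0.0115) kept in all 20 fits. Dusp6 was 10.38, 9.30, 10.56, 9.67 and 9.94 in ANIT and 8.22, 8.58, 8.83, 8.76 and 9.30 in vehicle bile duct. In hepatocytes Dusp6 stood at 7.93, 8.18, 7.98, 8.04 and 8.30 with ANIT against 8.65, 8.12, 8.28, 8.50 and 9.54 with vehicle. Its change was 1.23 in bile duct and -0.53 in hepatocytes (unadjusted p = 0.0293, adjusted p = 0.615 in hepatocytes alone), giving a difference of 1.76 ± 0.36 (adjusted p = 0.0181). A second Dusp6 probe set also passed, at 1.69 ± 0.39 (adjusted p = 0.0348), and another, at 1.25 ± 0.47, did not (adjusted p = 0.208). Epha2, an ephrin receptor kinase whose gene ERK induces, stood at 7.67 to 9.79 (median 9.02) in ANIT and 5.35 to 7.51 (median 6.40) in vehicle bile duct, with no overlap. Its difference was 2.37 ± 0.44 (adjusted p = 0.0177). Without ANIT bile duct replicates 2 and 4, 9 of the 19 genes passed, all higher. With quantile normalization 3 of the 19 passed, with 1 variance over the 4 groups 4, and with the hepatocyte marker covariate none.

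Of 27 immediate early genes, which respond to signals without new protein synthesis, 2 were higher in bile duct and 25 did not pass (median 0.55). Of the 27, 13 were measured in bile duct and 8 in hepatocytes. Ier2, a nuclear protein gene of the early serum response, was 6.49, 5.79, 5.90, 6.22 and 5.17 in ANIT bile duct, against 4.12, 4.33, 4.39, 4.78 and 5.02 in vehicle bile duct. The groups did not overlap, and the difference of 1.79 ± 0.34 (adjusted p = 0.0120) was kept in all 20 fits. Nab2, a corepressor that limits EGR factors, differed by 2.27 ± 0.44 (adjusted p = 0.0177). The stress factor gene Atf3 differed by 3.34 ± 0.81 (adjusted p = 0.0667) and the AXIN-regulated factor gene Csrnp1 by 1.47 ± 0.36 (adjusted p = 0.0578), neither passing. Ccn2, which encodes a secreted matrix protein and is a target of YAP, was the single call of 19 in its list, at 2.17 ± 0.54 (adjusted p = 0.0468), and was kept in 6 of 20 fits.

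**Figure D3:**
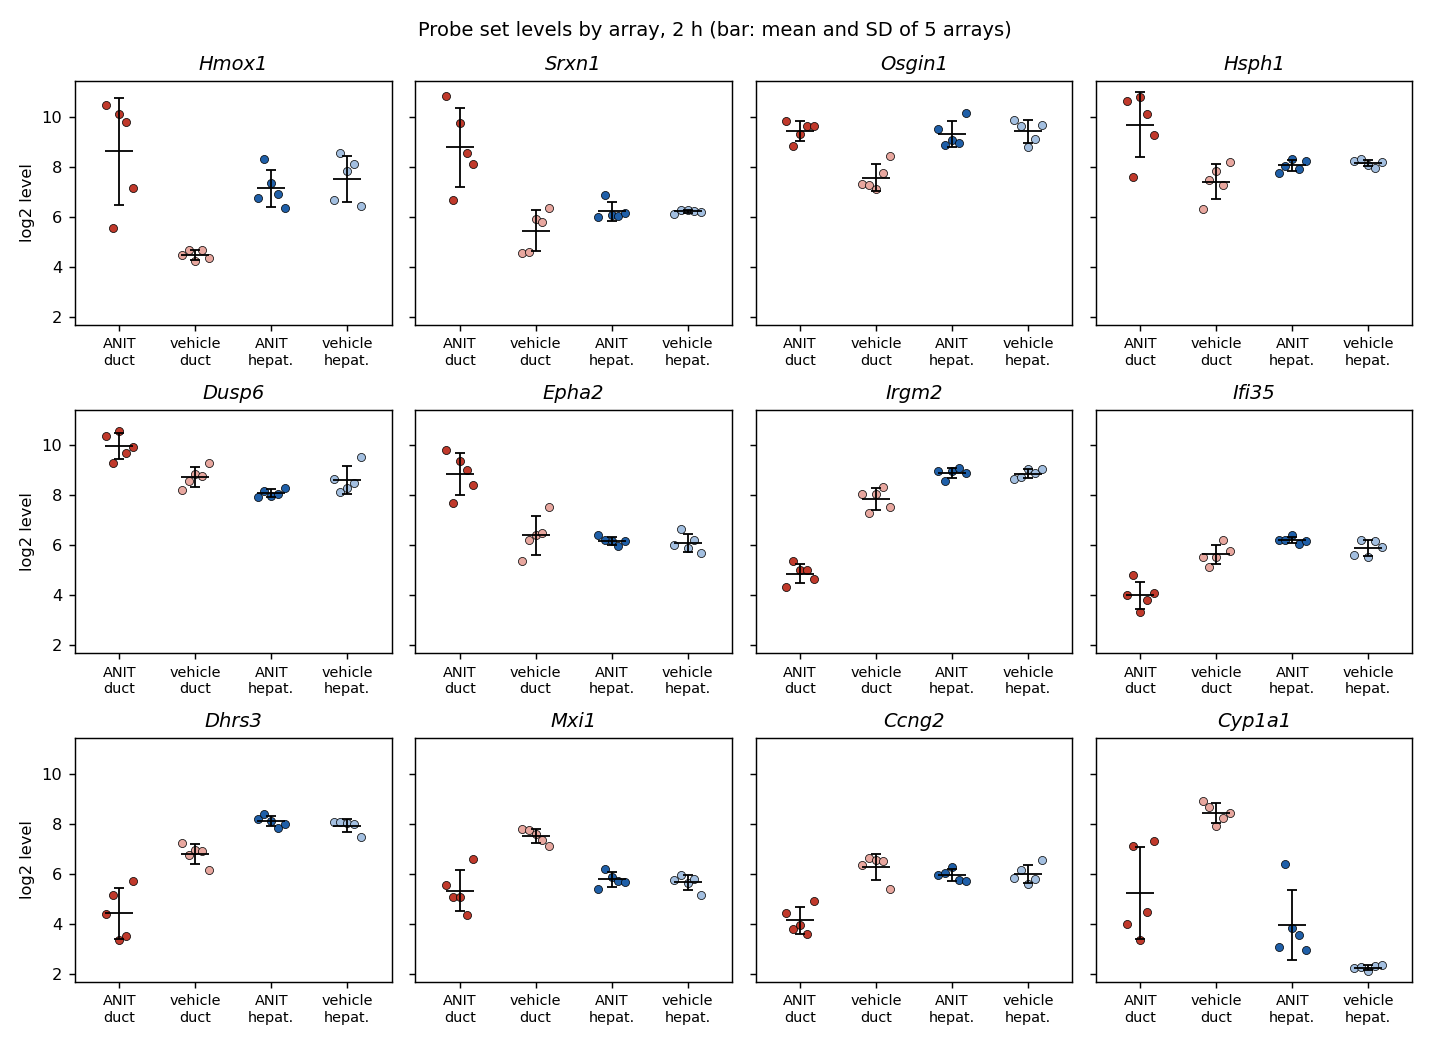
Log2 level of 12 named genes on each array of the 4 groups (points), with mean and SD of 5 arrays (bars). Hmox1, Srxn1, Osgin1, Hsph1, Dusp6 and Epha2 have a higher mean in ANIT than in vehicle bile duct. Irgm2, Ifi35, Dhrs3, Mxi1, Ccng2 and Cyp1a1 have a lower mean, while hepatocyte groups lie close together except for Cyp1a1.

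Interferon-induced genes gave the regional difference with the smallest p. Of 23 on the array, 3 were lower in bile duct, none was higher and 20 did not pass, with a median difference of -0.39 and 19 of the 23 negative. Over all probe sets 0.782% were called lower, and 7468 differences were negative and 8391 positive. Of the 23, 12 were measured in bile duct and 10 in hepatocytes. Irgm2, an interferon-inducible GTPase that acts on vacuoles holding intracellular pathogens, stood at 4.33, 5.35, 5.02, 4.99 and 4.64 in ANIT bile duct, against 8.05, 7.27, 8.04, 8.31 and 7.54 in vehicle bile duct. In hepatocytes it was 8.96, 8.55, 8.95, 9.10 and 8.89 with ANIT, against 8.63, 8.74, 9.04, 8.89 and 9.03 with vehicle. The bile duct groups were far apart, and the hepatocyte groups overlapped. The difference was -3.0 ± 0.29 (adjusted p = 2.11e-05), 8.00-fold, and was called in each of the 20 fits without 1 array and under each of 15 other settings.

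Irf1, a transcription factor that both responds to and drives interferon genes, was 4.33, 5.56, 4.60, 4.82 and 4.65 in ANIT bile duct, against 5.98, 6.08, 6.15, 6.96 and 6.95 in vehicle bile duct. The groups did not overlap, and the difference was -1.59 ± 0.32 (adjusted p = 0.0219). Psmb9, a subunit of the immunoproteasome, changed by -1.21 in bile duct and by 0.42 in hepatocytes, neither passing alone, with a difference of -1.63 ± 0.36 (adjusted p = 0.0242). Parp14, an interferon-induced ADP-ribosyltransferase, differed by -1.06 ± 0.29 without passing (adjusted p = 0.0791). Quantile normalization left Irf1 and Psmb9 short of the threshold. Ifi35, another interferon-induced gene that the list did not hold, was lower in bile duct by 1.64 at 3.31 to 4.79 in ANIT against 5.13 to 6.19 in vehicle arrays, and its regional difference was -1.95 ± 0.32 (adjusted p = 0.00687). Of 24 NF-kB targets and chemokines, 1 was lower, Nfkbia, which encodes the NF-kB inhibitor IkB-alpha, at -1.82 ± 0.42 (adjusted p = 0.0325, kept in 10 of 20 fits). The mean of 13 macrophage and Kupffer cell markers was 5.74 ± 0.12 in ANIT and 6.13 ± 0.38 in vehicle bile duct arrays (SD, exact permutation p = 0.0635, BH 0.354), and its part in these differences was not tested.

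The letters GAAA, any 2 bases and GAAA again, the core of the interferon-stimulated response element, were in the RefSeq promoters of 12 of the 20 list genes matched, against 3.29% of all promoters. Irgm2 alone among these 12 was called. Irgm2 and Parp14 are shown with the motif in capitals, as the list genes named here that hold it (GRCr8 chr10:42889838-42889907 and chr11:78408028-78408097, both + strand).
Irgm2: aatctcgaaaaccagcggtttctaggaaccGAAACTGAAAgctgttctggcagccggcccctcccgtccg
Parp14: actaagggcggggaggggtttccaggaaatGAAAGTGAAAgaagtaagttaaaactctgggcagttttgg

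Ccng2 and Mxi1 were among the 10 largest negative differences of genes measured in both regions. Ccng2, encoding cyclin G2, which slows the cell cycle, was 4.43, 3.78, 3.96, 3.60 and 4.92 in ANIT bile duct, against 6.33, 6.64, 6.53, 6.50 and 5.38 in vehicle bile duct. Vehicle replicate 5 was the nearest to the ANIT group, which it did not reach, and the difference was -2.10 ± 0.35 (adjusted p = 0.00687). Mxi1, which competes with MYC for its partner MAX, was 5.53, 5.05, 5.07, 4.35 and 6.59 in ANIT bile duct, against 7.78, 7.76, 7.59, 7.35 and 7.12 in vehicle bile duct. These groups were also apart, the difference was -2.32 ± 0.38 (adjusted p = 0.00687), and it was the single call of 15 in the list of the Myc network. A second Mxi1 probe set differed by -0.19 ± 0.29 (adjusted p = 0.789). Ccng2 and Mxi1 were each kept in all 20 fits.

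Of 11 p53 targets on the array, 3 were lower and none higher, with a median difference of -0.03. Sesn1, a sestrin that restrains mTORC1, stood at 2.34 to 4.85 (median 3.78) in ANIT and 5.58 to 6.22 (median 6.08) in vehicle bile duct, a difference of -2.28 ± 0.42 (adjusted p = 0.0124). Btg1, an antiproliferative factor gene, differed by -1.41 ± 0.27 (adjusted p = 0.0170) and Rprm, a gene of arrest at the G2 phase, by -1.95 ± 0.43 (adjusted p = 0.0319). The cell cycle inhibitor gene Cdkn1a, another p53 target, differed by 1.44 ± 0.64 in the opposite direction without passing (adjusted p = 0.292).

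Cyp1a1, a cytochrome P450 gene induced through the aryl hydrocarbon receptor (AHR), had the largest regional difference of all probe sets. It stood at 3.99, 7.11, 3.35, 4.45 and 7.30 in ANIT bile duct, against 8.91, 8.67, 7.91, 8.23 and 8.42 in vehicle bile duct. In hepatocytes it was 3.08, 6.39, 3.82, 3.56 and 2.93 with ANIT, against 2.21, 2.26, 2.12, 2.30 and 2.33 with vehicle. ANIT arrays were all below vehicle arrays in bile duct and all above them in hepatocytes, where the group means were 3.96 and 2.24, under the level of 5 taken as measured. The change was -3.19 in bile duct (adjusted p = 0.0264) and 1.71 in hepatocytes (unadjusted p = 0.00541, adjusted p = 0.523), and the difference was -4.90 ± 0.82 (adjusted p = 0.00687). Of 9 AHR targets, Cyp1a1 was the single call. Cyp1a2 differed by -1.22 ± 0.52 and the receptor gene Ahr itself by 0.47 ± 0.27, neither passing (adjusted p = 0.278 and 0.412).

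Among the lower calls were 2 transporter genes and 1 retinoid gene. Slc34a2, a sodium-phosphate cotransporter gene, was 5.90, 5.71, 5.81, 6.48 and 7.64 in ANIT bile duct, against 8.18, 7.80, 8.68, 8.93 and 8.91 in vehicle bile duct, with no overlap. Its difference was -2.30 ± 0.42 (adjusted p = 0.0115), and hepatocyte arrays were at 3.96 to 4.87 with ANIT and 3.74 to 4.91 with vehicle. The glutamate transporter gene Slc1a3 differed by -2.19 ± 0.42 (adjusted p = 0.0208), while other Slc1a3 probe sets gave -0.97 ± 0.60 and 0.39 ± 0.31 and did not pass. These were the 2 calls among 20 genes of cholangiocyte secretion and transport (median -0.40). Dhrs3, which reduces retinal to retinol, was 4.37, 5.16, 3.34, 3.50 and 5.71 in ANIT bile duct, against 7.21, 6.75, 6.95, 6.90 and 6.14 in vehicle bile duct. The hepatocyte arrays of Dhrs3 were 7.83 to 8.38 with ANIT and 7.48 to 8.08 with vehicle, and the difference was -2.55 ± 0.43 (adjusted p = 0.0113). It was the single call of 18 retinoid genes, whose median was 0.10.

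The largest negative difference among genes measured in both regions was in Ncald, a neuronal-type calcium sensor gene. It was 3.60 to 5.12 (median 4.88) in ANIT and 6.49 to 7.13 (median 6.80) in vehicle bile duct, and 4.32 to 6.12 (median 5.84) in ANIT and 4.10 to 6.21 (median 4.22) in vehicle hepatocytes. The difference was -3.08 ± 0.52 (adjusted p = 0.00687). Tubb5, a beta-tubulin gene, was 6.82 to 7.83 in ANIT and 9.04 to 9.79 in vehicle bile duct and differed by -2.07 ± 0.36 (adjusted p = 0.00687), with a second probe set at -1.49 ± 0.41 (adjusted p = 0.0781). Others of similar size were Rasgef1b, an exchange factor for Ras-family GTPases, at -2.24 ± 0.55 (kept in 5 of 20 fits, a second probe set -1.26 ± 0.48 and not passing), Rasl11b, a Ras-like GTPase gene, at -2.25 ± 0.49, and the liprin gene Ppfibp2 at -2.11 ± 0.39. Enc1, which binds actin, differed by -2.20 ± 0.45 and Mmd, of a family of membrane receptors, by -2.14 ± 0.44. Their adjusted p ran up to 0.0433 for Rasgef1b, and a second Enc1 probe set gave 0.55 ± 0.32 (adjusted p = 0.420). Higher in bile duct beside the stress genes were the glycine transporter gene Slc6a9 at 1.75 ± 0.38 and the autophagy gene Tecpr1 at 1.77 ± 0.38 (adjusted p = 0.0237 each). Other probe sets gave 0.78 and 0.55 for Slc6a9 and 0.28 for Tecpr1 and did not pass.

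The ANIT change had opposite signs in bile duct and hepatocytes for 116 of the 163 probe sets, 71.2%, against 46.4% of all probe sets. Selection by the difference of the 2 changes itself favours opposite signs, and most hepatocyte changes were near 0. For 25 of the 163 the signs were opposite with an unadjusted p under 0.05 in each region. Besides Cyp1a1, Dusp6 and Ifi35, the rule for opposite changes named Mdc1, Nudt3 and Tmed3. Nudt3, a diphosphoinositol polyphosphate phosphohydrolase gene, was 4.15, 4.55, 4.28, 4.47 and 4.38 in ANIT against 3.14, 2.63, 3.84, 3.38 and 3.38 in vehicle bile duct, and 3.32, 3.32, 3.14, 3.04 and 3.24 in ANIT against 3.52, 3.71, 3.48, 3.35 and 3.47 in vehicle hepatocytes. Its arrays separated upward in bile duct and downward in hepatocytes at low levels, with a difference of 1.39 ± 0.26 (adjusted p = 0.0184), whereas a brighter probe set gave -0.09 ± 0.28 (adjusted p = 0.909). Tmed3, a cargo receptor gene of the early secretory pathway, changed by -0.98 in bile duct and 0.69 in hepatocytes, a difference of -1.67 ± 0.35 (adjusted p = 0.0204). Mdc1, a mediator of the DNA damage checkpoint, changed by -1.25 and 0.39 at levels under 5 in both regions (difference -1.64 ± 0.30, adjusted p = 0.0101). Slc30a2, a zinc exporter gene, was the single call with the larger change in hepatocytes. It stood at 3.15, 2.77, 3.11, 3.36 and 3.10 in ANIT hepatocytes, against 4.18, 4.17, 3.47, 3.72 and 3.62 in vehicle hepatocytes, with no overlap. Its change was 0.68 in bile duct and -0.73 in hepatocytes, neither passing alone, and the difference was 1.41 ± 0.30 (adjusted p = 0.0237).

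The lists of hepatocyte genes leaned to positive regional differences without a call. Of 20 hepatocyte markers 19 had a positive regional difference and none passed, with a median of 1.46 that lay in bile duct (1.47) and not in hepatocytes (-0.01). Beside them 22 acute phase and plasma protein genes had a median of 1.12 and 21 xenobiotic cytochrome and conjugation genes a median of 0.53, with no call in either list. Apoa1, of high-density lipoprotein, differed by 1.92 ± 0.54 (adjusted p = 0.0993) and the gluconeogenic gene Pck1 by 1.47 ± 0.39 (adjusted p = 0.0779). Azgp1, a plasma glycoprotein gene, was called. It counted as measured in bile duct only through its ANIT group, with a mean of 5.24 against 3.35 in vehicle. Azgp1 was 4.33, 5.09, 6.86, 4.69 and 5.24 in ANIT bile duct against 2.99, 3.56, 2.72, 4.66 and 2.81 in vehicle bile duct, where hepatocyte arrays held 10.90 to 11.18 with ANIT and 10.92 to 11.38 with vehicle. Its difference of 1.99 ± 0.46 (adjusted p = 0.0497) was kept in 4 of 20 fits and became 0.84 ± 0.36 with the hepatocyte marker covariate. Under the same covariate Hmox1 was 4.62 ± 1.04 (adjusted p = 0.112), Srxn1 3.54 ± 0.81 (adjusted p = 0.126) and Irgm2 -3.26 ± 0.36 (adjusted p = 0.000627).

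Other lists gave few calls or none. None of 22 cholangiocyte markers passed, with a median of -0.24, and the keratin gene Krt19 differed by -0.11. Among them the biliary transcription factor gene Onecut1 differed by -2.55 ± 0.69 (adjusted p = 0.0791), with a second probe set at -1.28 (adjusted p = 0.151). Endoplasmic reticulum chaperones had 20 of 23 differences negative, where 7468 of all 15866 probe sets were negative. None was called, and the median was -0.68, with a median change of -0.34 in bile duct and 0.25 in hepatocytes. Targets of the integrated stress response (23 genes, median 0.20), ribosome biogenesis (25, 0.30), bile acid synthesis (15, -0.05) and canalicular transport (14, 0.38) had no call. The clock gene Per2 was the single call of 14 clock genes (1.31 ± 0.33, adjusted p = 0.0492) and the lipoprotein receptor gene Lrp8 the single call of 17 cholesterol genes (2.18 ± 0.50, adjusted p = 0.0497), each kept in 3 of 20 fits. Markers of fibroblasts, macrophages, endothelium, lymphocytes, neutrophils and erythrocytes had medians between -0.21 and 0.23 and no call.

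**Figure D4:**
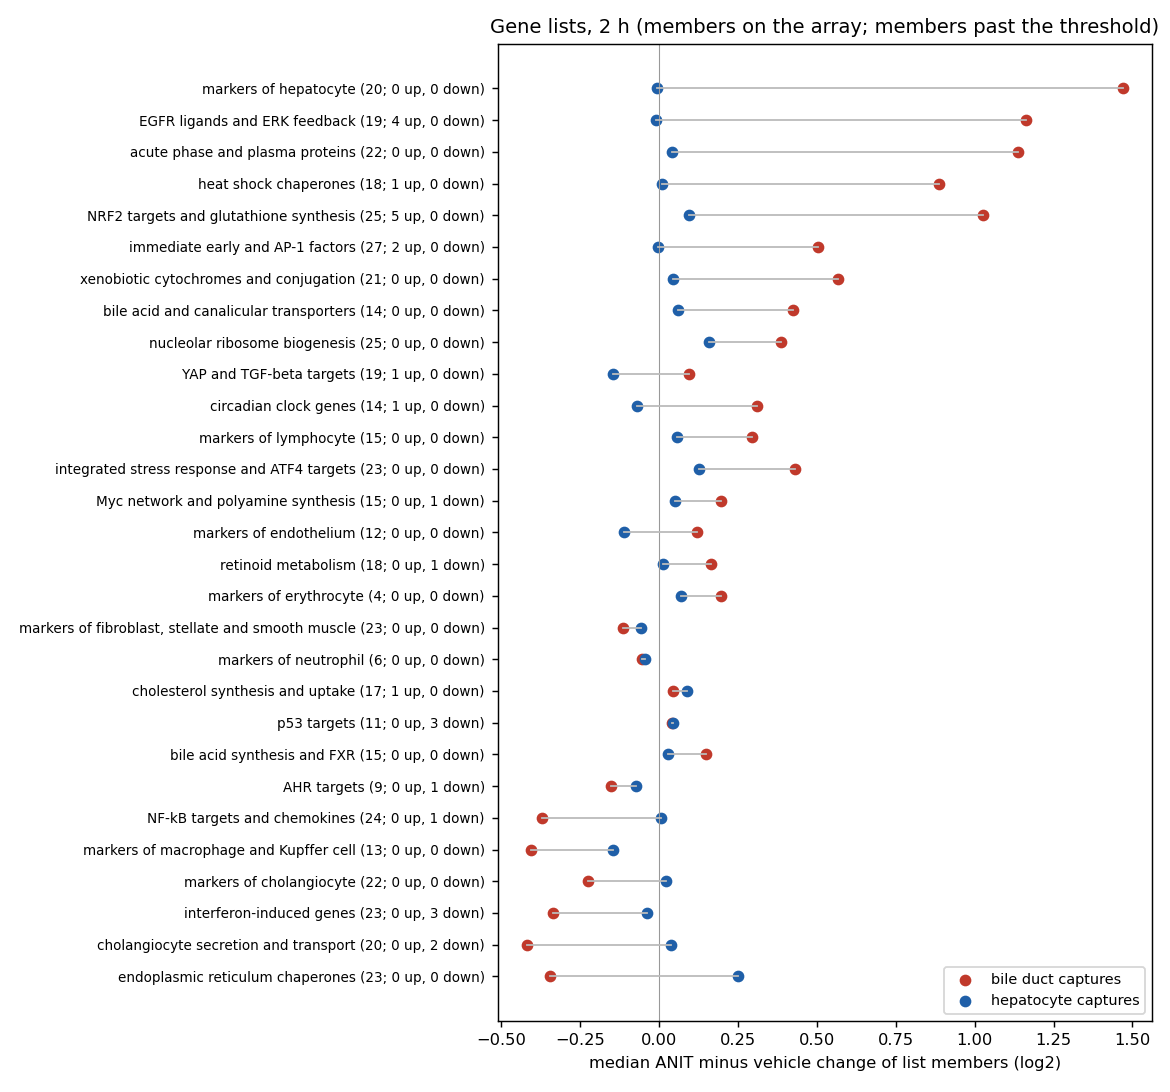
Median ANIT minus vehicle change (log2) of the members of each gene list in bile duct captures (red) and hepatocyte captures (blue), ordered by the median regional difference, with members on the array and members called in parentheses. The red points run from about -0.4 to 1.47 and the blue points stay between -0.15 and 0.25.

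The same contrast at 6 h, in 19 other arrays of the same design, passed for 762 probe sets (4.8%), 587 higher (3.7%) and 175 lower (1.1%). Of the 163 probe sets called at 2 h, 27 were also called at 6 h, which is 16.6% of the 2 h calls and 3.54% of the 6 h calls, and 26 of these kept their sign (14 higher, 12 lower). The share also called at 6 h in the same direction was 35.9% of the higher and 9.68% of the lower 2 h calls. Over all probe sets, 3.7% were called higher and 1.1% lower at 6 h. For the 39 higher calls the median difference was 1.75 at 2 h and 1.08 at 6 h. For the 124 lower calls it was -1.45 at 2 h and -0.33 at 6 h. The 163 were selected by their 2 h values, and that selection by itself favours a smaller size at 6 h. Cyp1a1 gave -4.90 at both times (adjusted p = 0.00814 at 6 h), with unlike parts. Its change was -3.19 in bile duct and 1.71 in hepatocytes at 2 h, and -0.91 in bile duct and 4.00 in hepatocytes at 6 h. Srxn1 gave 2.77 at 6 h (adjusted p = 0.00126), Dusp5 3.05 (adjusted p = 0.00113), Dhrs3 -2.46 (adjusted p = 0.00361) and Hmox1 2.61 (adjusted p = 0.0136). The change in the difference between the 2 times passed for 425 probe sets (2.68%), 20 of them among the 163. Genes named by their 2 h values enter this test with those same values, so it is no separate support for them. Tubb5 was -2.07 at 2 h and 1.12 at 6 h (2 h minus 6 h, -3.19, adjusted p = 0.00165), Ccng2 -2.10 and 0.79 (adjusted p = 0.0115) and Mxi1 -2.32 and -0.26 (adjusted p = 0.0265). The hepatocyte marker list had a median regional difference of 1.46 at 2 h and -1.37 at 6 h. Its part in the difference between times was not tested.

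**Figure D5:**
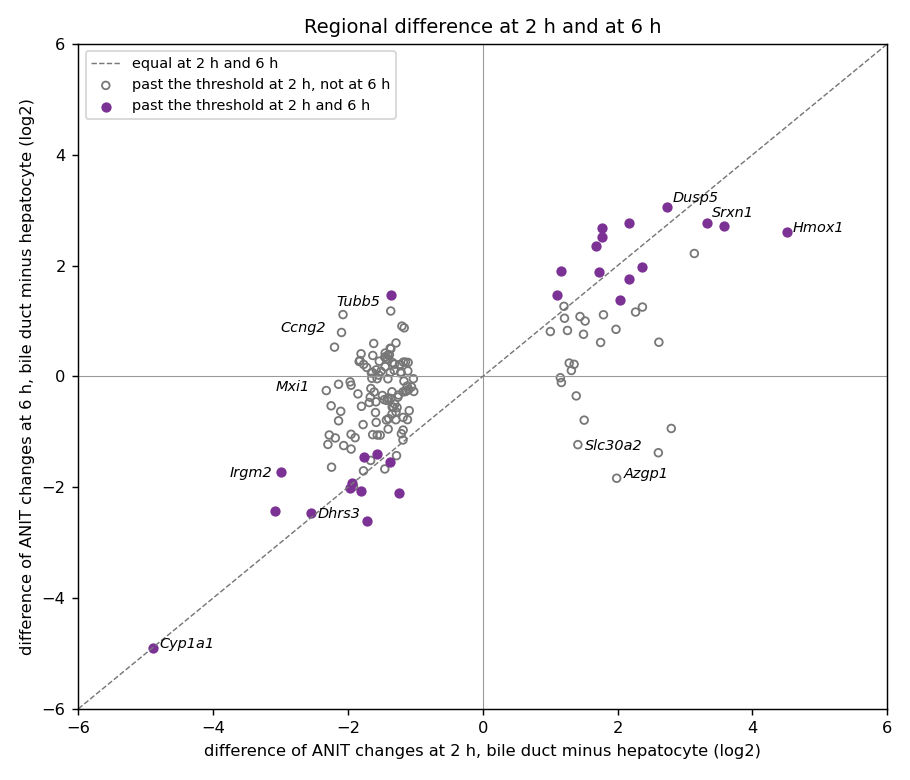
Regional difference (log2) at 2 h (horizontal) and 6 h (vertical) of the 163 probe sets called at 2 h, filled where also called at 6 h, with a dashed line of equality. Most higher calls stay above 0 at 6 h, whereas lower calls gather around -0.33, with Cyp1a1, Irgm2 and Dhrs3 still below -1.7.

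In the authors' deposited tables of log ratios, the difference between the bile duct and the hepatocyte table had the sign found here for all 163 probe sets. These tables come from the same arrays and are no independent check. Across all probe sets the 2 versions of the difference correlated at 0.738, with a median absolute size of 1.51 here and 1.10 in the authors' deposited tables for the 163.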

How the data were processed

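Values were the log2 intensities per probe set of the deposited series matrix, which the authors made with RMA per the submitters' processing notes (background correction, quantile normalization and summary of probes). Whether 1 RMA run held all arrays is not given in the sources used here. RNA was extracted with the Picopure kit and amplified with the NuGen Ovation system, per the labels' protocols. The authors' deposited comparison tables hold log10 ratios of ANIT over vehicle and p-values from Rosetta Resolver, with an error score of each log ratio that was not used. Only their ratios, turned to log2, were set beside the results. Of 15923 probe sets, 57 controls were left out. A supplied table gave 1 symbol for 12783 of the rest, several for 312 and none for 2771, and 12748 identifiers were also in RefSeq.

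In R 4.3.3, limma 3.58.1 (lmFit and eBayes) was run in each region on its own 10 arrays, the changes were subtracted, and the standard error was the root of the summed squares with Welch-Satterthwaite degrees of freedom (14.1 to 27.8). Tests were two-sided, with Benjamini-Hochberg adjustment over 15866 probe sets and a threshold of 0.05. Errors are standard errors from limma for differences and SDs for levels. A gene counted as measured in a region if a group mean there was at least 5. It could thus count through 1 group alone, as in bile duct Hmox1 did through ANIT and Irgm2 through vehicle. The fit was tested on simulated data with independent noise for each probe set and array. It recovered 27% of 2-fold and 73% of 4-fold differences, and 4.76% of its calls were false. The simulation held no shift shared across the probe sets of an array, so it does not cover such shifts. Arrays carry no counts, so their number limits the precision.

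Genes were named by rule: the 10 largest differences each way measured in both regions, 5 each way measured in bile duct only, up to 6 with opposite changes, those with the larger hepatocyte change, and up to 4 members per list with the smallest p. A list gene was represented by its probe set of highest mean. Members, the 21 pathway and 8 marker lists and the tests were chosen with earlier results of these data known. Osgin1, Akr1b8 and Nqo1 also belong to lists, and values of further probe sets stand beside several named genes, Txnrd1 and Rasgef1b among them.

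Alternatives covered variances, normalization, filters, covariates, array weights, thresholds, a replicate block and each array left out. The replicate block ran limma on bile duct minus hepatocyte values of same-numbered arrays, so it kept no separate variance for each region. Replicate numbers were checked for pairing: over 10 pairs of a bile duct and a hepatocyte array, deviations of same-numbered arrays correlated at -0.0909 to 0.129, so the numbers were not taken to pair rats.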

Additional observations from a re-analysis of the deposited data

Results flagged for a closer look

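Among 140 groups of 5 arrays (35 named genes in 4 groups), 7 held an array far from the other 4 by Dixon's criterion, where chance gives about 1 in 20. ANIT bile duct replicate 2, 1 of the 2 arrays of low spread, had Akr1b8 at 8.81 against 11.29 to 12.03 on the others. Vehicle bile duct replicate 5 had Ccng2 at 5.38 against 6.33 to 6.64. In ANIT hepatocytes, replicate 2 had Cyp1a1 at 6.39 against 2.93 to 3.82 and Srxn1 at 6.88 against 5.98 to 6.16, replicate 3 had Ier2 at 4.27 against 4.78 to 4.83, and replicate 4 had Rasgef1b at 9.80 against 8.71 to 8.96. In vehicle hepatocytes, replicate 5 had Dhrs3 at 7.48 against 7.97 to 8.08. Each of these genes except Srxn1, Rasgef1b and Akr1b8 kept its call in all 20 fits that left out 1 array.

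The ANIT change differed between regions at 2 h for 163 probe sets, and that regional difference itself differed between 2 h and 6 h for 425. Named genes among the latter were Mxi1 (2 h minus 6 h, -2.07, adjusted p = 0.0265), the actin-binding gene Enc1 (-2.73, adjusted p = 0.0215), Ccng2 (-2.89, adjusted p = 0.0115) and Tubb5 (-3.19, adjusted p = 0.00165), all with lower values at 2 h. Nudt3 (1.74, adjusted p = 0.0264) and the zinc exporter gene Slc30a2 (2.64, adjusted p = 0.0065) had higher values at 2 h. These genes were named by their 2 h values, which enter this test too.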

How the results depend on the processing

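The 163 calls of the regional difference became 269 with 4 group variances, 81 with the variance taken from 2 h and 6 h groups, 99 with quantile normalization over the 20 arrays and 99 within each region (40 higher and 59 lower). They became 374 with array weights (128 higher and 246 lower), 1 (Irgm2) with the hepatocyte marker covariate and 12, all lower, at an adjusted p under 0.01. The replicate block gave 62, all of them among the 163 (19 higher), and 3 of the 10 pairs correlated best with their own number. Leaving out 1 array gave 27 to 239. Without vehicle bile duct replicates 1 to 5 in turn the count was 83, 73, 27, 83 and 86, and without ANIT bile duct replicates 1, 3 and 4 it was 95, 60 and 60. No single hepatocyte array moved it by more than 1.5 times. In bile duct alone the 178 calls ran from 12 (without vehicle replicate 3) to 308 (without ANIT replicate 5) and were 314 of 6024 after dim probe sets were removed. In hepatocytes the count ran from 0 to 1. Calls measured in both regions, 96, were 52 with a level of 6. The counts of list members without ANIT bile duct replicates 2 and 4, and under the other settings for lists, were chosen after seeing the data. Why these counts move was not tested, apart from the stricter threshold and levels.

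Of 44 named genes called, 15 passed in all 20 fits without 1 array, none reversed its sign, 30 passed with quantile normalization and 38 without ANIT bile duct replicates 2 and 4. The hepatocyte marker covariate left 43 short of the threshold, and for 19 it was the only one of the other settings to do so. With 5 arrays a group and the spread of bile duct captures, small differences in bile duct are not resolved, so a gene not called here is not shown to respond alike in both regions.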

Other observations

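The following called genes were singled out after their values were seen, belong to no list fixed here and stand for no group. Lower in bile duct were Cdkn1b, encoding the cyclin-dependent kinase inhibitor p27, at -1.39 ± 0.32 (adjusted p = 0.0373), the proapoptotic gene Bcl2l11 at -1.97 ± 0.39 (adjusted p = 0.0166), and the glucocorticoid-induced gene Tsc22d3 at -1.77 ± 0.37 (adjusted p = 0.0204). Other probe sets of Cdkn1b (-0.68) and of Bcl2l11 (0.32 and 0.15) did not pass. The transcriptional coregulator gene Cited2 differed by -1.63 (adjusted p = 0.0204, another probe set -0.62 and not passing), the nuclear receptor gene Nr2f2 by -1.66 (adjusted p = 0.0237, another -1.38 and not passing) and the bHLH factor gene Hes6 by -1.85 (adjusted p = 0.0113). Lipa, encoding lysosomal acid lipase, differed by -1.56 (adjusted p = 0.0239) and the cholesterol carrier gene Npc2 by -1.29 (adjusted p = 0.0468). Dolk and Dpagt1, which act at the start of N-glycan synthesis, differed by -1.72 (adjusted p = 0.00687) and -1.12 (adjusted p = 0.0422). On the higher side stood the phosphate transporter gene Slc20a1 at 1.73 (adjusted p = 0.0232), where the phosphate transporter gene Slc34a2 was lower, and the p53-binding inhibitor gene Ppp1r13l at 1.26 (adjusted p = 0.0239).

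The bile duct change was also read by how far a probe set prefers hepatocytes, taken from the 6 h vehicle arrays, which the 2 h contrast does not use. Of 231 probe sets at least 4 log2 higher in hepatocytes than in bile duct, 81.0% had a positive ANIT change in bile duct at 2 h (median 0.50), with a median of 0.02 in hepatocytes, and 2 were called higher and none lower. Of 930 probe sets 2 to 4 log2 higher in hepatocytes, 35.4% were positive (median -0.20), with 2 called higher and 12 lower. Of 1749 probe sets 1 to 2 log2 higher in hepatocytes, 33.6% were positive (median -0.20), with 5 called higher and 26 lower. Among 10230 probe sets within 1 log2, which held 24 of the 39 higher and 55 of the 124 lower calls, 54.9% were positive. Of 2255 probe sets 1 to 2 log2 higher in bile duct, 66.1% were positive (median 0.19), with 3 called higher and 16 lower. Of 421 that were 2 to 4 log2 higher there, 39.7% were positive (median -0.19), with 2 called higher and 13 lower. Of 54 more than 4 log2 higher there, 14.8% were positive (median -0.51), with 1 called higher and 2 lower. The part of this pattern in the calls was not tested.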
